A study of Mus musculus with 40 samples.

Results

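The naive pluripotency transcription factors *Nanog*, *Esrrb*, *Klf2*, *Klf4*, *Klf5*, *Tfcp2l1*, *Tbx3*, *Zfp42*, *Prdm14* and *Dppa3* were followed in RNA-seq libraries of mouse embryonic stem cells (mESCs) that had lost Cyclin C or CDK8. These 10 genes were chosen by name for their role in pluripotency, with earlier results of these data known. They were found by their Ensembl identifiers and GENCODE symbols among the 55536 genes counted. All 10 passed the filter on low counts in both sequencing pools, or multiplexes, where 18577 and 18721 genes were tested. Cyclin C (*Ccnc*) and CDK8 are partners in the kinase module of the Mediator complex, which links transcription factors to RNA polymerase II. WT cells (replicates 1 and 2) were set beside 3 *Ccnc* KO lines, named D1, G2 and H5, and 3 *Cdk8* KO lines, named B9, C8 and H4, and each line received DMSO or 900 nM AZD6738, an ATR inhibitor (ATRi), for 4 h. Each knockout line was a single CRISPR clone, all cells grew on gelatin in medium with serum and the cytokine LIF, and the DMSO and ATRi libraries of a line came from the same cell line. The 4 WT libraries were sequenced with the *Ccnc* KO libraries in the *Ccnc* multiplex and again with the *Cdk8* KO libraries in the *Cdk8* multiplex, 10 libraries in each.

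Naive pluripotency is the state of the epiblast before implantation, and mESCs hold it in culture through a network of transcription factors that activate one another. LIF sustains this network by signalling through its receptor and JAK kinases to STAT3, which acts on *Klf4* and *Tfcp2l1*, while *Esrrb*, *Klf2*, *Tbx3* and *Nanog* lie at other entry points of the network. When mESCs leave the naive state, these factors fall and genes of the formative state or of extraembryonic endoderm rise.

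Library totals lay between 30899823 and 67274049 counts. In the *Ccnc* multiplex *Ccnc* stood at 4.24 to 7.4 CPM (counts scaled to the size of the library) in the 6 *Ccnc* KO libraries and at 43.6 to 45.1 CPM in the 3 WT libraries used. *Cdk8* was lower by 0.35 on the log2 scale in *Cdk8* KO cells (SE 0.06, adjusted p = 0.0112 by edgeR's quasi-likelihood test), with 71.2 to 78.6 CPM in WT libraries and 52.3 to 64.5 CPM in knockout libraries. WT replicate 2 under ATRi stood apart from the other libraries, with 3.22% and 3.32% of its counts on mitochondrial genes in the 2 multiplexes against 1.1% to 2.16% in all others, and with *Cdk8* at 57.7 CPM in the *Cdk8* multiplex, within the range of the knockout libraries. It was left out of the fits, following the methods of the study. Values with it included are given for the members whose genotype or ATRi result it changed. The naive factors, which mark the labelled cell type, had counts in every library. Their summed level was 2354 to 2524 CPM in the WT libraries of the *Ccnc* multiplex.

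The naive factors are protein-coding genes (GRCm38 coordinates). They are *Nanog* (ENSMUSG00000012396, chr6:122707489-122714633), *Esrrb* (ENSMUSG00000021255, chr12:86361117-86521628), *Klf2* (ENSMUSG00000055148, chr8:72319033-72321656), *Klf4* (ENSMUSG00000003032, chr4:55527143-55532466), *Klf5* (ENSMUSG00000005148, chr14:99298691-99315036), *Tfcp2l1* (ENSMUSG00000026380, chr1:118627945-118685168), *Tbx3* (ENSMUSG00000018604, chr5:119670669-119684724), *Zfp42* (ENSMUSG00000051176, chr8:43295063-43306980), *Prdm14* (ENSMUSG00000042414, chr1:13113457-13127163) and *Dppa3* (ENSMUSG00000046323, chr6:122626410-122630272).

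Per kilobase of exon, the naive factors spanned a wide range of levels. In WT cells under DMSO *Zfp42*, a zinc finger protein used as a marker of undifferentiated cells, was highest, at a mean of 304 CPM per kb in the *Ccnc* multiplex. *Klf2* (164 CPM per kb), *Nanog* (145), *Esrrb* (116), *Klf4* (76.2) and *Klf5* (35) followed, and their ranges over the 2 WT replicates did not overlap. *Tbx3* (10.1 CPM per kb), *Dppa3* (9.3) and *Tfcp2l1* (8.36) lay close together, and *Dppa3* overlapped with both of its neighbours in this order. *Prdm14* was lowest, at 5.55 CPM per kb. In *Ccnc* KO cells *Nanog* (149 CPM per kb) had a higher mean than *Klf2* (127), but the ranges of these 2 genes over the clones overlapped. Counts of *Zfp42* and *Dppa3* are uncertain, because processed pseudogenes of both were counted as well, *Zfp42-ps1* with 1700 to 4589 counts per library against 10757 to 29884 for *Zfp42*, and *Dppa3-ps* with 24 to 142 against 155 to 405 for *Dppa3*.

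**Figure D1:**
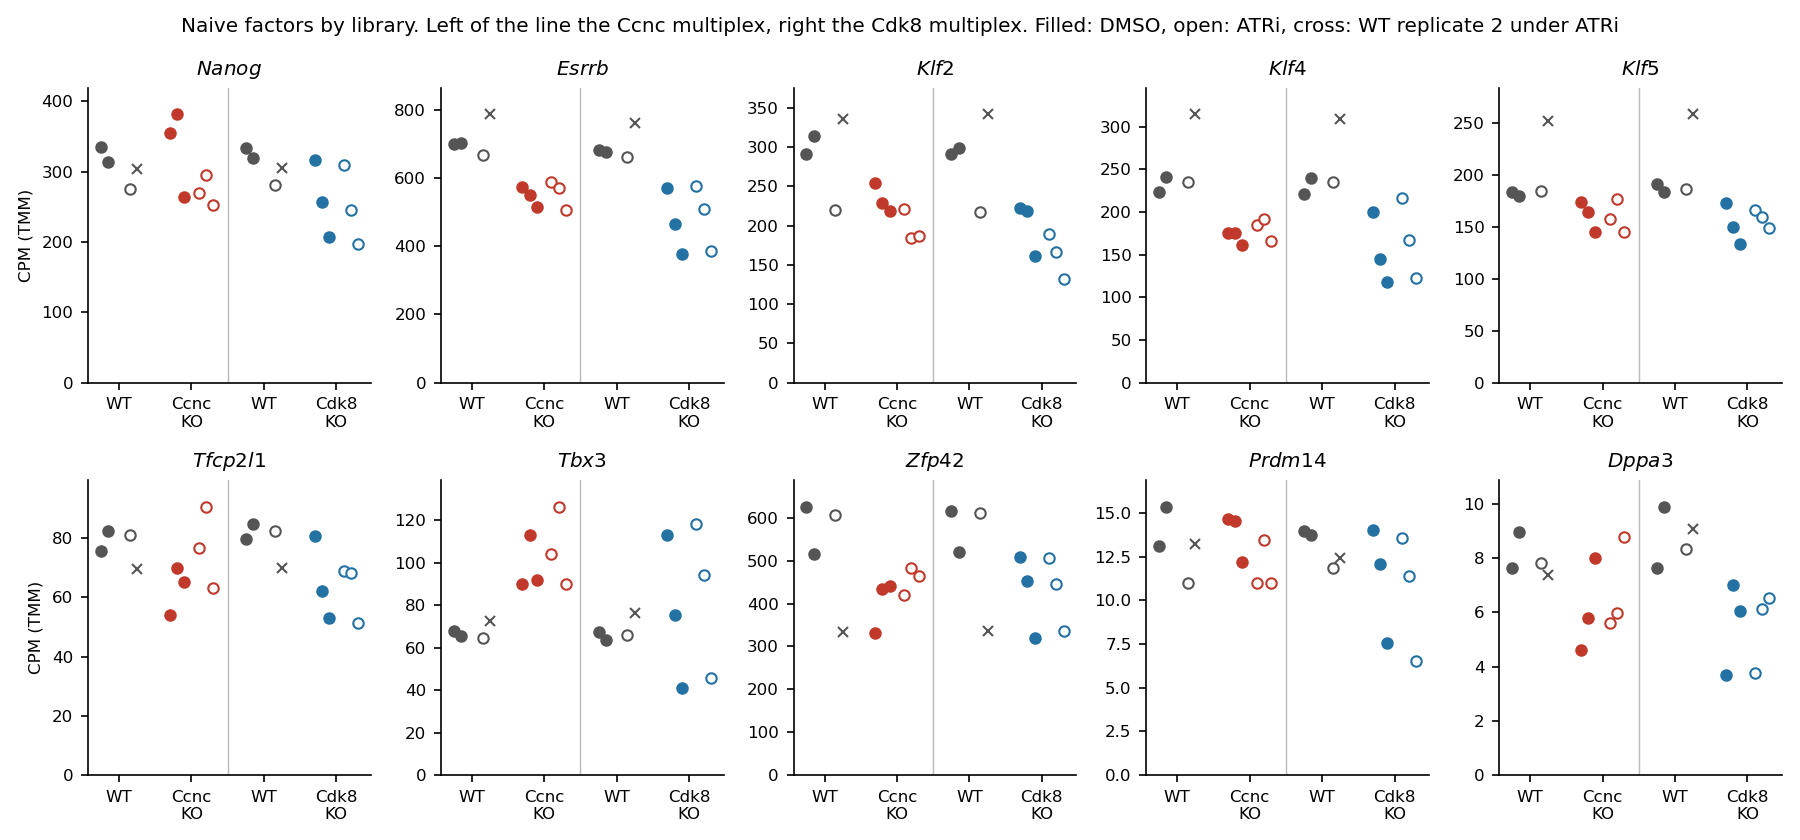
Level of each naive factor in CPM, normalized by TMM, in every library, with the *Ccnc* multiplex left and the *Cdk8* multiplex right of the line in each panel, DMSO filled, ATRi open and WT replicate 2 under ATRi as a cross. *Esrrb*, *Klf4*, *Klf5* and *Zfp42* lay lower in all 6 knockout libraries of each multiplex than in the 3 WT libraries used, and *Tbx3* lay higher in all 6 *Ccnc* KO libraries.

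*Ccnc* KO cells had lower levels of a part of the naive network and a higher level of *Tbx3*. *Zfp42*, *Klf4*, *Esrrb* and *Klf2* fell, by 0.46, 0.41, 0.32 and 0.28 on the log2 scale, and *Tbx3* rose by 0.63. Thus 4 of the 10 naive factors were called lower, where 5.28% of all genes tested were called lower, and 1 of 10 was called higher, where 7.01% were. Because the members were chosen with earlier results known, such shares are a description and no independent comparison. *Nanog* and *Prdm14*, with log2 fold changes of 0.02 and 0.02, were not called. None of the 10 estimates reached a 2-fold change. In bulk RNA, a lower level in each cell and fewer cells that express a gene cannot be told apart. The methods do not describe the WT samples as clones. An effect of a knockout and one of deriving single clones therefore cannot be told apart either.

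*Esrrb* encodes an orphan nuclear receptor that activates many naive genes. Under DMSO it stood at 699 and 703 CPM in the 2 WT replicates and at 574, 549.6 and 516 CPM in clones D1, G2 and H5. Under ATRi it stood at 668 CPM in WT replicate 1 and at 587, 570.5 and 506 CPM in the clones, so that all 6 knockout libraries lay below the WT libraries. The fitted log2 fold change of *Esrrb* was -0.32 (SE 0.06, 95% interval -0.44 to -0.20), with an adjusted p of 0.00207 by edgeR.

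The Krüppel-like factors KLF2, KLF4 and KLF5 bind related GC-rich sites and can partly stand in for one another. For *Klf4*, the DMSO libraries gave 224 and 241 CPM in WT cells and 176, 175 and 161 CPM in clones D1, G2 and H5, and the ATRi libraries gave 235 CPM in WT replicate 1 and 184, 192 and 166 CPM in the clones. The groups did not overlap, and the log2 fold change of *Klf4* was -0.41 (SE 0.06, adjusted p = 0.000341 by edgeR). *Klf4* was called in all 12 alternative analyses of this comparison. For *Klf2*, the level under DMSO was 291 and 314 CPM in WT cells and 254, 229 and 218 CPM in the clones, without overlap. Under ATRi *Klf2* stood at 219 CPM in WT replicate 1 and at 222, 184 and 187 CPM in the clones, 1 of which, D1, was above WT. The log2 fold change of *Klf2* was -0.28 (SE 0.07, adjusted p = 0.0194 by edgeR), and its adjusted p was under 0.05 in 8 of 12 alternatives, with a range of 0.000123 to 0.0994. With all WT libraries *Klf2* was -0.43 (adjusted p = 0.0203 by edgeR). *Klf5* lay between 145 and 177 CPM in the 6 knockout libraries, with a median of 161, and between 179.8 and 184 CPM in the 3 WT libraries. Although these groups did not overlap either, the log2 fold change of -0.18 (95% interval -0.33 to -0.03) was not called at an adjusted p of 0.108 by edgeR. With all WT libraries *Klf5* was -0.31 (adjusted p = 0.0605 by edgeR), in a range over the alternatives of 0.0384 to 0.582.

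*Zfp42*, also known as *Rex1*, stood at 627 and 516 CPM in the WT DMSO libraries and at 331, 435 and 442 CPM in clones D1, G2 and H5. Under ATRi the level was 607 CPM in WT replicate 1 and 421, 484 and 464 CPM in the clones, again without overlap. The log2 fold change of *Zfp42* was -0.46 (SE 0.09, adjusted p = 0.0032 by edgeR). With all WT libraries, however, this call was lost, at -0.28 with an adjusted p of 0.291 by edgeR. *Zfp42* stood at 334 CPM in WT replicate 2 under ATRi. Over the 12 alternatives the adjusted p of *Zfp42* ranged from 8.78e-13 to 0.291.

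*Tbx3*, a T-box factor that takes part in LIF-dependent self-renewal and can also promote extraembryonic endoderm, moved the other way. Its level was 68 and 65.4 CPM in the WT DMSO libraries and 90.1, 113 and 92 CPM in clones D1, G2 and H5. With ATRi it was 64.5 CPM in WT replicate 1 and 104, 126 and 89.9 CPM in the clones, so that every knockout library lay above every WT library. The log2 fold change of *Tbx3* was 0.63 (SE 0.10, 95% interval 0.42 to 0.84), and the adjusted p was 0.000902 by edgeR. An antisense gene, *Tbx3os1*, shares 115 exon bases with *Tbx3* on the opposite strand and had 10 to 60 counts per library in these stranded counts.

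The remaining members did not pass the test in *Ccnc* KO cells. *Nanog*, the homeodomain factor of the network, stood under DMSO at 335 and 314 CPM in WT cells and at 355, 381 and 264 CPM in the clones, with D1 and G2 above and H5 below both WT replicates. Its fold change had a 95% interval of -0.17 to 0.22 on the log2 scale. *Prdm14*, a repressor of differentiation and DNA methylation genes, stood between 11 and 14.7 CPM in the knockout libraries and between 11 and 15.4 CPM in the WT libraries, with an interval of -0.20 to 0.23. *Tfcp2l1*, a target of STAT3, had a log2 fold change of -0.23 (adjusted p = 0.178 by edgeR), with clone levels of 54.1, 69.9 and 65.1 CPM against 75.5 and 82.4 CPM under DMSO. For *Dppa3*, also known as *Stella*, a factor that protects maternal DNA methylation in the zygote, the log2 fold change was -0.33 (adjusted p = 0.227 by edgeR), with 4.6, 5.81 and 8.0 CPM against 7.64 and 8.96 CPM under DMSO. Clone H5 lay within the WT range for *Dppa3* and D1 and G2 below it.

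Altogether 4 members, *Esrrb*, *Klf4*, *Klf5* and *Zfp42*, lay below all WT libraries in all 6 *Ccnc* KO libraries, which 6.92% of all genes tested did, and *Tbx3* lay above, which 7.53% did. All calls in this comparison but that of *Klf4* were lost without WT replicate 1. The DMSO library of replicate 2 then remained as the 1 WT control, and 289 genes were called in all, against 2284 with it.

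**Figure D2:**
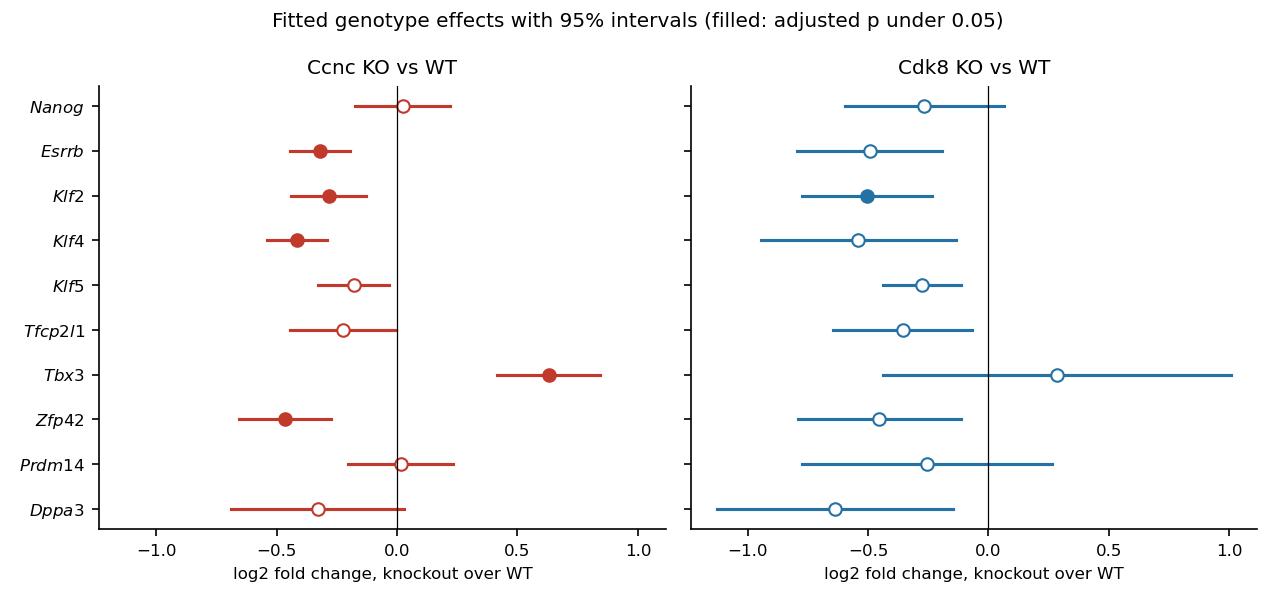
Fitted log2 fold change of each naive factor, knockout over WT, as points with 95% intervals, in *Ccnc* KO (left) and *Cdk8* KO cells (right), filled where the adjusted p was under 0.05. The intervals of 7 members in *Cdk8* KO cells lay below 0, all 10 intervals were wider there than in *Ccnc* KO cells, and *Klf2* alone was called there.

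The promoters of the 4 genes that fell in *Ccnc* KO cells are shown, with that of *Nanog*, which was not called, for comparison. Each is the 250 bases before the transcript start in RefSeq (GRCm38.p6), which held a window for these 5 members and *Tfcp2l1*. *Klf5*, *Tbx3*, *Prdm14* and *Dppa3* were not analysed here. The sequences run 5′ to 3′ on the strand of the gene, and capitals mark matches on either strand to TTCNNNGAA (the STAT site), AAGGTCA (the ESRRB site), GGGNGTG (a KLF site), ATGCAAA (the octamer of OCT4) or CTTTGA (a TCF site).
*Esrrb*, chr12:86360867-86361116, plus strand: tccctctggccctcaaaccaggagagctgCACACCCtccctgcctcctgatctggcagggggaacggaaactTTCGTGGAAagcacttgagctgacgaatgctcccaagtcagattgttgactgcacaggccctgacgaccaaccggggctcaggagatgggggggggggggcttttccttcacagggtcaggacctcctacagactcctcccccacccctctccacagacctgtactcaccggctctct
*Klf4*, chr4:55532476-55532725, minus strand: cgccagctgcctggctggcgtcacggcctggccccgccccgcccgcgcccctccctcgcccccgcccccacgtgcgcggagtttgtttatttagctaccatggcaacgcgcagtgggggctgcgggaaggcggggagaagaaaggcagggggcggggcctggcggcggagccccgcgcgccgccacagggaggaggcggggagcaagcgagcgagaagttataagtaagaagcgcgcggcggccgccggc
*Klf2*, chr8:72318812-72319061, plus strand: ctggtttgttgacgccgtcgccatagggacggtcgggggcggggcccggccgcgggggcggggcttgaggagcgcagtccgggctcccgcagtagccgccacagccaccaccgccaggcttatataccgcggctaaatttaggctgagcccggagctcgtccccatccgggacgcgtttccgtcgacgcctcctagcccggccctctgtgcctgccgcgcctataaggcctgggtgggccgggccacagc
*Zfp42*, chr8:43307010-43307259, minus strand: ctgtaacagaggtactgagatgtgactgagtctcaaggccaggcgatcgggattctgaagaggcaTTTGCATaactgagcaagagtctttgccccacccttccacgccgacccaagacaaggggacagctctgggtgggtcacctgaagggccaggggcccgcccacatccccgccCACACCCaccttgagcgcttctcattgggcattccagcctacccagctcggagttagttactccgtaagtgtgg
*Nanog*, chr6:122707239-122707488, plus strand: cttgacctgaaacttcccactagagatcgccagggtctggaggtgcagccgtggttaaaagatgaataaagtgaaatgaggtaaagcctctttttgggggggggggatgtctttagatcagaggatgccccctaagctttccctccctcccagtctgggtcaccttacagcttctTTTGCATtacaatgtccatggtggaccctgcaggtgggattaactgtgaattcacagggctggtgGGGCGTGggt
The *Esrrb* window held a STAT match, which 7.02% of the 32851 promoter windows of this length do, and a KLF match, which 26.1% do. Those of *Zfp42* and *Nanog* each held an octamer match, as 4.12% of windows do, and a KLF match. The windows of *Klf2* and *Klf4* held none of the 5 motifs. None of the 6 windows held the ESRRB or TCF letters, which 4.08% and 13.8% of all windows hold. A match is a description of the letters only, and no binding was measured.

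*Cdk8* KO cells had lower estimates for 9 of the 10 naive factors, but *Klf2* alone passed the test, at a log2 fold change of -0.50 (SE 0.12, adjusted p = 0.0468 by edgeR). So 1 of 10 members was called lower, where 2.03% of all genes tested were called lower, and 0 were called higher, where 2.28% of all genes were. The median of the 10 log2 fold changes was -0.41, against 0.01 for all genes tested, and in *Ccnc* KO cells it was -0.25 against 0.00. Both comparisons share their WT controls, so that their values are set side by side and are not independent. At an unadjusted p under 0.05, 7 of 10 members passed in each of these comparisons, where 26.7% of all genes did after loss of *Ccnc* and 21.3% after loss of *Cdk8*. With the clone as a block, *Klf2* missed the threshold, at an adjusted p of 0.0522 by limma (a fit in which 0.668% of all genes were called lower), and over the 12 alternatives its adjusted p ranged from 0.00245 to 0.495.

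The spread between the *Cdk8* KO clones was large, and clone H4 was the lowest of the 3 for 9 of the 10 members under DMSO. *Klf2* stood at 222, 218 and 162 CPM in clones B9, C8 and H4, against 292 and 298 CPM in WT cells, without overlap. *Esrrb* stood at 570.2, 465 and 377 CPM against 682 and 676 CPM, and *Klf4* at 199.6, 144 and 118 CPM against 221 and 239 CPM. For each of these 3 genes every clone was below both WT replicates, with B9 nearest to WT and H4 farthest. Under ATRi the order of the clones was the same, with *Esrrb* at 575, 508 and 387 CPM and *Klf4* at 217, 167 and 123 CPM in B9, C8 and H4. The log2 fold changes were -0.49 for *Esrrb* (SE 0.14, adjusted p = 0.0708 by edgeR) and -0.54 for *Klf4* (SE 0.18, adjusted p = 0.124). With all WT libraries both were called, *Esrrb* at -0.53 (adjusted p = 0.0287 by edgeR) and *Klf4* at -0.63 (adjusted p = 0.0468 by edgeR). In *Ccnc* KO cells the SEs of these genes were 0.06 and 0.06.

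*Zfp42* and *Klf5* also lay below WT in every clone. *Zfp42* stood at 508, 452 and 319 CPM in clones B9, C8 and H4 and at 616 and 522 CPM in WT cells under DMSO, with a log2 fold change of -0.45 (adjusted p = 0.123 by edgeR). In WT replicate 2 under ATRi, which was left out, *Zfp42* stood at 336 CPM, within the range of the knockout libraries, and with all WT libraries its value was -0.28 (adjusted p = 0.375 by edgeR). For *Klf5* the levels were 173, 149.7 and 134 CPM and 191 and 183 CPM, with a log2 fold change of -0.28 (adjusted p = 0.0656 by edgeR). *Klf5* was called with all WT libraries, at -0.40 (adjusted p = 0.0367 by edgeR). *Dppa3* had its lowest level in clone B9, at 3.71 CPM, where C8 and H4 had 7.0 and 6.05 CPM and WT cells 7.65 and 9.91 CPM, and so it did not follow the order of the clones that the other members showed. Its log2 fold change was -0.64 (95% interval -1.13 to -0.15), not called at an adjusted p of 0.134 by edgeR. Counting both treatments, *Esrrb*, *Klf4*, *Klf5*, *Zfp42* and *Dppa3* lay below the 3 WT libraries used in all 6 *Cdk8* KO libraries, which 6.07% of all genes tested did, and no member lay above them in all 6, which 6.59% of all genes did.

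*Tbx3* differed between the *Cdk8* KO clones in direction as well as in size. Under DMSO it stood at 113 CPM in B9, 75.2 CPM in C8 and 41.1 CPM in H4, against 67.5 and 63.8 CPM in WT cells, so that B9 and C8 were above and H4 below both replicates. The fitted value of 0.28 had a 95% interval of -0.44 to 1.01. *Nanog* lay below both WT replicates in every clone, with 317, 257 and 207 CPM against 334 and 319 CPM under DMSO, but its log2 fold change of -0.27 was not called (adjusted p = 0.333 by edgeR). *Prdm14* stood at 14.1, 12.1 and 7.53 CPM against 14 and 13.7 CPM, at the WT level in B9 and lowest in H4, and *Tfcp2l1* at 80.7, 62.2 and 52.8 CPM against 79.6 and 84.9 CPM. Their log2 fold changes were -0.26 (adjusted p = 0.573 by edgeR) and -0.36 (adjusted p = 0.151 by edgeR).

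These calls turned on single clones. Without B9, 7 members were called lower (*Nanog*, *Esrrb*, *Klf2*, *Klf4*, *Klf5*, *Tfcp2l1* and *Zfp42*), where 3.73% of all genes were, with *Esrrb* at -0.65 and *Klf4* at -0.77. Without H4, *Esrrb* (-0.35), *Klf2* (-0.37) and *Zfp42* (-0.29) were called lower, where 3.35% of all genes were, and *Tbx3* (0.59) was called higher, where 3.79% were. Without C8, or without either WT replicate, no member was called. In clone H4 the sum of 8 trophectoderm markers was 314 CPM under DMSO, against 36.3 and 72.6 CPM in B9 and C8 and 17.1 to 18.1 CPM in WT cells, and its part in the low levels of the naive factors in this clone was not tested.

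**Figure D3:**
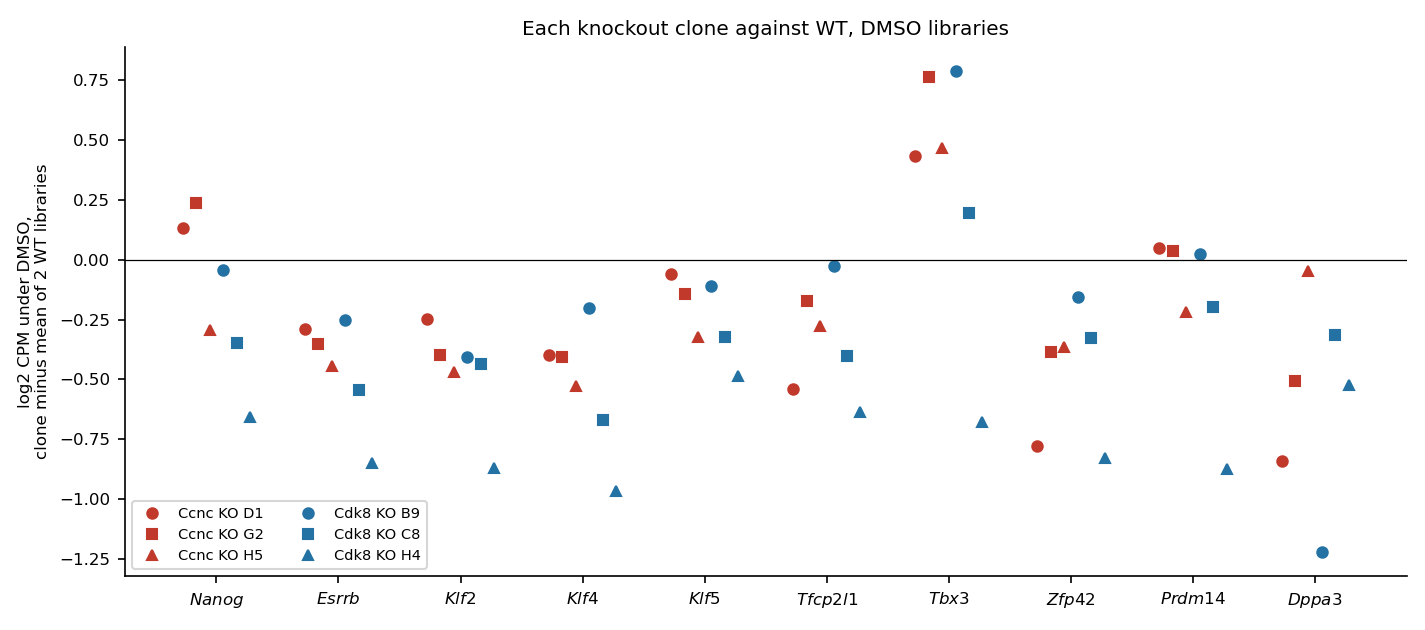
Difference of each knockout clone from the mean of the 2 WT libraries under DMSO, in log2 CPM, for each naive factor, with *Ccnc* KO clones in red and *Cdk8* KO clones in blue. *Cdk8* KO clone H4 (blue triangles) lay lowest of the 3 blue clones for all members but *Dppa3*, and *Tbx3* lay above WT in 5 of 6 clones.

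The clones of one knockout differed by a median of 0.299 on the log2 scale between the lowest and the highest, over the 10 members, among the *Ccnc* KO clones, and by 0.643 among the *Cdk8* KO clones. The spread between sequencing runs was smaller, although a range over 3 clones tends to be wider than a difference between 2 values. The same WT library, sequenced in both multiplexes, differed by a median of 0.0263 and at most 0.162 on the log2 scale for 9 of the members, and by up to 0.293 for *Dppa3*, the member with the fewest counts. The 2 WT replicates differed by a median of 0.095 under DMSO and of 0.238 under ATRi, where replicate 2 is the library that stood apart. In it *Klf5*, at 252 CPM, and *Klf4*, at 315 CPM, lay above all other libraries, and *Zfp42*, at 334 CPM, lay below all other WT libraries.

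No naive factor was called different between the 2 knockouts when their difference itself was tested. In a fit over both multiplexes, in which the WT libraries set the difference between runs, 0 of 10 members were called by edgeR and 0 by DESeq2, 0 had an unadjusted p under 0.05, and 1 gene of all tested, *Ccnc* itself, was called (0.00545%). The difference, *Ccnc* KO minus *Cdk8* KO, lay between 0.01 and 0.33 on the log2 scale over the 10 members. It was above 0 for all of them, where 52% of all genes tested lay below 0. The intervals left room for sizeable differences, from -0.13 to 0.30 for *Klf5*, the narrowest, to -0.39 to 1.06 for *Tbx3*, and for *Esrrb* the interval was -0.15 to 0.48. This fit counts each WT library once per multiplex, so that part of its spread is technical. Under DMSO the median difference of the 10 members from WT was -0.27, -0.26 and -0.31 in *Ccnc* KO clones D1, G2 and H5. In *Cdk8* KO clones B9, C8 and H4 it was -0.13, -0.34 and -0.75. The part of clone H4 in the shared direction of the members was not tested.

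ATRi was compared with DMSO to ask whether the naive factors respond to 4 h of ATR inhibition. Of the 10, *Klf2* was called lower in the *Ccnc* multiplex, by 0.31 on the log2 scale (SE 0.07, adjusted p = 0.0472 by edgeR), where 0.743% of all genes tested were called lower. In the *Cdk8* multiplex its estimate was -0.35 (SE 0.12), with an unadjusted p of 0.0143 and an adjusted p of 0.311 by edgeR, and 0 members were called by edgeR or DESeq2, where 0.0481% of all genes were called lower by edgeR. Both multiplexes hold the same WT libraries. With the clone as a block, which compares the libraries of a line with each other, *Klf2* was called in both, at -0.29 (adjusted p = 0.0186 by edgeR) and -0.34 (adjusted p = 7.34e-05). In these paired fits 1.46% and 6.39% of all genes were called lower.

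*Klf2* was lower with ATRi than with DMSO in every line used, and went from 291 CPM under DMSO to 219 CPM under ATRi in WT replicate 1 of the *Ccnc* multiplex. In *Ccnc* KO clones D1, G2 and H5 the ATRi libraries differed from the DMSO libraries by -0.20, -0.32 and -0.22 on the log2 CPM scale, and in *Cdk8* KO clones B9, C8 and H4 by -0.23, -0.39 and -0.29. This made 7 of 7 lines with a lower level. WT replicate 2, which was left out, went the other way, from 314 to 336 CPM. With it in the fit the call in the *Ccnc* multiplex was lost, at -0.20 with an adjusted p of 0.483 by edgeR, in a range over the 12 alternatives of 9.35e-05 to 0.483.

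*Nanog* and *Prdm14* were also lower with ATRi in 7 of 7 lines. The share of all genes that moved 1 way in all 7 lines was not computed. The counts of lines given for members are therefore a description without a background. For *Nanog* the change was -0.28, -0.40 and -0.37 in WT replicate 1 and *Ccnc* KO clones D1 and G2, and smaller in the others, at -0.06 in H5 and -0.03, -0.06 and -0.07 in B9, C8 and H4. Its log2 fold change in the *Ccnc* multiplex was -0.27 (adjusted p = 0.144 by edgeR), and it was called with the block, at -0.28 (adjusted p = 0.0317 by edgeR, in a range over the alternatives of 0.000822 to 0.357). *Prdm14* had estimates of -0.27 and -0.13 in the *Ccnc* and *Cdk8* multiplexes, with adjusted p-values of 0.189 and 0.888 by edgeR, and passed 0.05 in none of the 12 alternatives of each.

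*Klf4* was higher with ATRi in 7 of 7 lines, by between 0.0452 and 0.209 on the log2 CPM scale, opposite in direction to *Klf2*. It was not called without the block, at 0.06 (adjusted p = 0.617 by edgeR) and 0.10 (adjusted p = 0.892), and with the block it was called in the *Cdk8* multiplex, at 0.12 (adjusted p = 0.0282), where 4.87% of all genes were called higher. Over the alternatives in that multiplex its adjusted p ranged from 0.00183 to 0.977. *Esrrb*, at -0.01 and 0.03, and *Klf5*, at -0.0020 and 0.04, had estimates near 0, with lines on both sides of it. The other members, *Tfcp2l1*, *Tbx3*, *Zfp42* and *Dppa3*, had estimates between -0.04 and 0.21 and also moved both ways between lines. For *Tfcp2l1*, 2 lines stood out, *Ccnc* KO clones D1 and G2, with changes of 0.50 and 0.37.

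**Figure D4:**
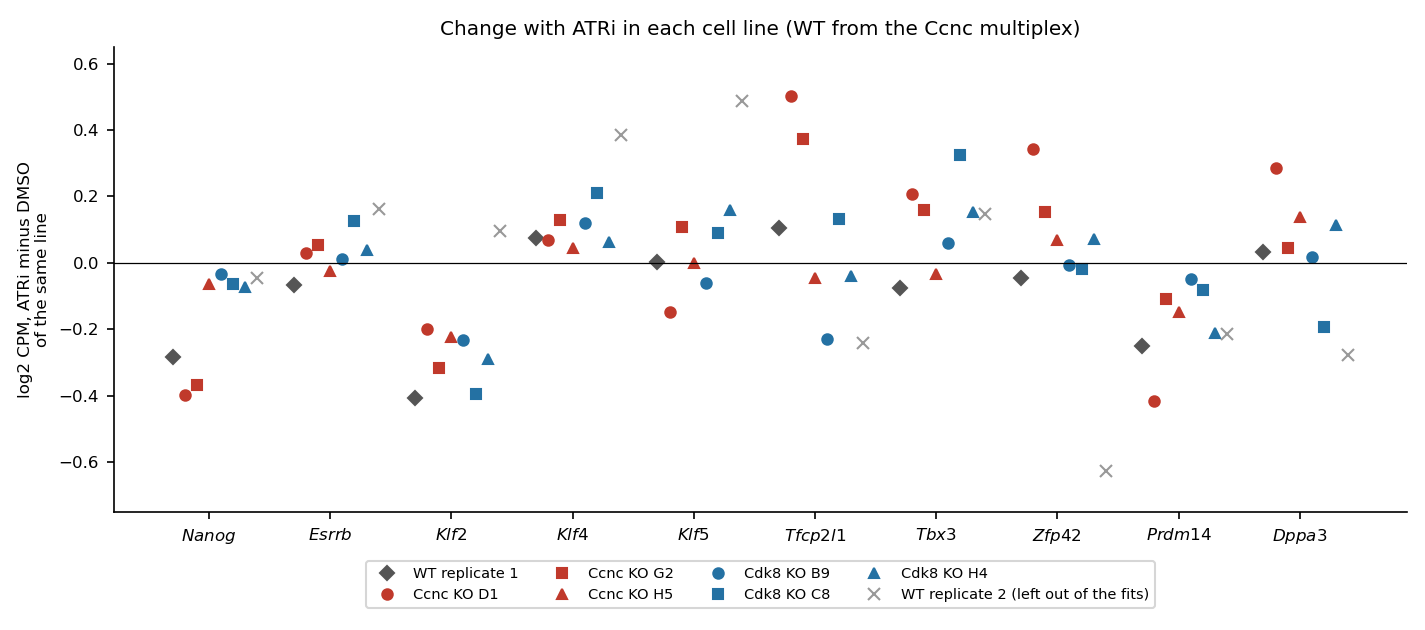
Change in log2 CPM from DMSO to ATRi within each cell line, for each naive factor, with WT replicate 1 as a diamond, the *Ccnc* KO clones in red, the *Cdk8* KO clones in blue and WT replicate 2, left out of the fits, as a cross. *Klf2*, *Nanog* and *Prdm14* were below 0 and *Klf4* above 0 in all 7 lines used, and WT replicate 2 was above 0 for *Klf2*.

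Whether the response to ATRi differed between knockout and WT cells was tested by the interaction of genotype and treatment. The values given are those of the main fits. With the block in the *Cdk8* multiplex, or without the low-count filter in the *Ccnc* multiplex, edgeR called some genes, but no naive factor. No member was called, 0 had an unadjusted p under 0.05, and of all genes 0% were called in either multiplex by edgeR. DESeq2 called 0 genes as well, and 395 and 255 genes had an unadjusted p under 0.05 in the *Ccnc* and *Cdk8* multiplexes, none of them a naive factor. For *Klf2*, the interaction was 0.20 (95% interval -0.11 to 0.52) in *Ccnc* KO and 0.14 (-0.47 to 0.74) in *Cdk8* KO cells. The test rests on 1 WT library under ATRi, and the widest interval among the members was that of *Tbx3* in *Cdk8* KO cells, -1.43 to 1.76.

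Around the naive factors, some genes of LIF signalling fell in both knockouts. Of 12 listed LIF-STAT3 pathway genes, 6 were called lower and 0 higher in *Ccnc* KO cells and 3 lower and 0 higher in *Cdk8* KO cells, with medians of -0.29 in both. Beside these counts and those of the other lists stand the shares of all genes tested, 5.28% called lower and 7.01% higher after loss of *Ccnc*, and 2.03% and 2.28% after loss of *Cdk8*. The lists too were chosen with earlier results of these data known. The LIF-STAT3 genes called in both knockouts were *Socs3*, the feedback inhibitor induced by STAT3 (-0.50 and -0.45), *Il6st*, which encodes the receptor subunit gp130 (-0.44 and -0.30), and *Stat3* (-0.27 and -0.39), with adjusted p-values from 0.000138 to 0.0201 by edgeR. *Klf4* and *Tfcp2l1*, named above as acted on by STAT3, had estimates of -0.41 and -0.23 in *Ccnc* KO cells. Of these, *Klf4* alone was called. In *Cdk8* KO cells the estimates of these 2 genes were -0.54 and -0.36, and neither was called. The part of the LIF-STAT3 genes in the levels of these members was not tested. The summed level of the 12 genes was 715 to 827 CPM in *Ccnc* KO and 732 to 819 CPM in *Cdk8* KO cells, below the 924 to 965 and 932 to 956 CPM of the WT libraries beside them. Of 10 genes of the Wnt-TCF pathway, 0 were called in either knockout by edgeR or DESeq2, and at an unadjusted p under 0.05 there was 1 in the *Ccnc* and 0 in the *Cdk8* KO comparison. Of 13 FGF-ERK pathway genes, 2 were called lower and 1 higher in *Ccnc* KO cells. In *Cdk8* KO cells 0 were called by edgeR, where 6 had an unadjusted p under 0.05 and DESeq2 called 2. With the clone as a block the LIF-STAT3 counts were 6 and 3 again, and without WT replicate 1 they were 2 and 0.

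Other genes of the naive state moved in both directions. Of 25 tested, 10 were called lower and 2 higher in *Ccnc* KO cells and 4 lower and 1 higher in *Cdk8* KO cells, with medians of -0.09 and -0.26. *Fbxo15*, a gene bound by OCT4 and SOX2 (-0.42 and -0.48), *Tdgf1*, a coreceptor for Nodal (-0.32 and -0.29), and *Dppa4* (-0.26 and -0.29) fell in both knockouts, and *Pecam1*, an adhesion molecule (0.64 and 0.40), rose. Of 7 core factors, 3, *Mycn* (-0.80), *Lin28a* (-0.29) and *Rif1* (-0.29), were called lower after loss of *Ccnc* and 1, *Sox2* (-0.23), after loss of *Cdk8*, while *Pou5f1*, which encodes OCT4, was not called in either (-0.09 and -0.18). These core factors were named after their values were seen. The lists share *Sall4*, *Fgf4* and *Etv4*, each of which stands in 2 of them. Of 12 formative genes tested, 4 were called higher and 3 lower in *Ccnc* KO cells and 2 higher and 2 lower in *Cdk8* KO cells. Their medians were 0.06 and 0.02, with 7 and 6 of the 12 estimates above 0. *Fgf5*, the classical marker of the formative epiblast, rose by 1.87 (SE 0.48) and 2.74 (SE 0.53), and *Sall2* by 0.62 and 0.86. *Dnmt3l*, a cofactor of de novo DNA methylation (-0.71 and -0.56), and *Zic2* (-0.93 and -0.90) fell. The summed formative genes lay at 1085 to 1235 CPM in *Ccnc* KO cells, below 1288 to 1306 in WT. In *Cdk8* KO cells they lay at 1076 to 1169 CPM, below 1274 to 1292 in WT. Such a sum follows its most abundant genes, and it does not show that the formative genes fell as a group. The summed core factors were also lower, at 2636 to 3108 against 3147 to 3393 CPM and at 2688 to 2987 against 3096 to 3390 CPM. With the clone as a block, the counts called after loss of *Cdk8* became 3 other naive-state genes, 0 core factors and 2 formative genes, and those after loss of *Ccnc* were again 12, 3 and 7. Without WT replicate 1 they were 2, 1 and 2 after loss of *Ccnc* and 0 in each list after loss of *Cdk8*.

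Markers of primitive endoderm moved with the same knockouts. Of 12, 10 were called higher after loss of *Ccnc* and 12 after loss of *Cdk8*, and none lower, with medians of 1.29 and 2.00 on the log2 scale. Their summed level was 211 to 242 CPM in WT and 326 to 493 CPM in *Ccnc* KO cells of one multiplex, and 210.4 to 242 and 596 to 851 CPM in WT and *Cdk8* KO cells of the other. No marker of the list was at 0 in any library. Among its leading genes were *Dab2*, an endocytic adaptor (2.79 and 3.44), *Sox7* (2.04 and 2.18) and the collagen gene *Col4a2* (1.88 and 2.70). This sum did not order the *Cdk8* KO clones as the naive factors did. Under DMSO it was 596, 744 and 602 CPM in *Cdk8* KO clones B9, C8 and H4, where the summed naive factors were 2202, 1843 and 1423 CPM. Of 8 trophectoderm markers, 5 were called higher in *Ccnc* KO cells, and 1 of 7 tested in *Cdk8* KO cells. None was called lower, but 2 of 8 and 2 of 7 had estimates below 0. For these markers DESeq2 called 4 and 5, and the count after loss of *Cdk8* was 6 without clone B9, 5 without H4 and 0 with the block. The sum of 8 fibroblast markers, as for feeder cells, which the methods do not mention, was 4.34 to 5.12 CPM in WT and 6.52 to 11.2 CPM in *Ccnc* KO cells of the *Ccnc* multiplex, and 3.95 to 5.42 and 7.24 to 23.3 CPM in WT and *Cdk8* KO cells of the other. Of these, 0 of 3 and 0 of 5 tested were called by edgeR, with 3 in each at an unadjusted p under 0.05 and 1 in each by DESeq2. Up to 4 of the 8 fibroblast markers were at 0 in a library. Of neuroectoderm markers, 2 of 6 tested were called lower in *Ccnc* KO cells, and of 8 mesoderm markers 1 was called higher there. In *Cdk8* KO cells, 0 of 7 and 0 of 8 were called by edgeR, with 3 and 2 at an unadjusted p under 0.05 and 3 and 1 by DESeq2. The 13 genes of the 2-cell-like state in the files did not pass the filter on low counts in any comparison, and of those tested without it, 12 and 10, edgeR called 0 after loss of *Ccnc* and 0 after loss of *Cdk8*. Without WT replicate 1 the primitive endoderm counts fell to 3 and 0, and with the block they were 10 and 9. The part of these other cell types in the levels of the naive factors was not tested.

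**Figure D5:**
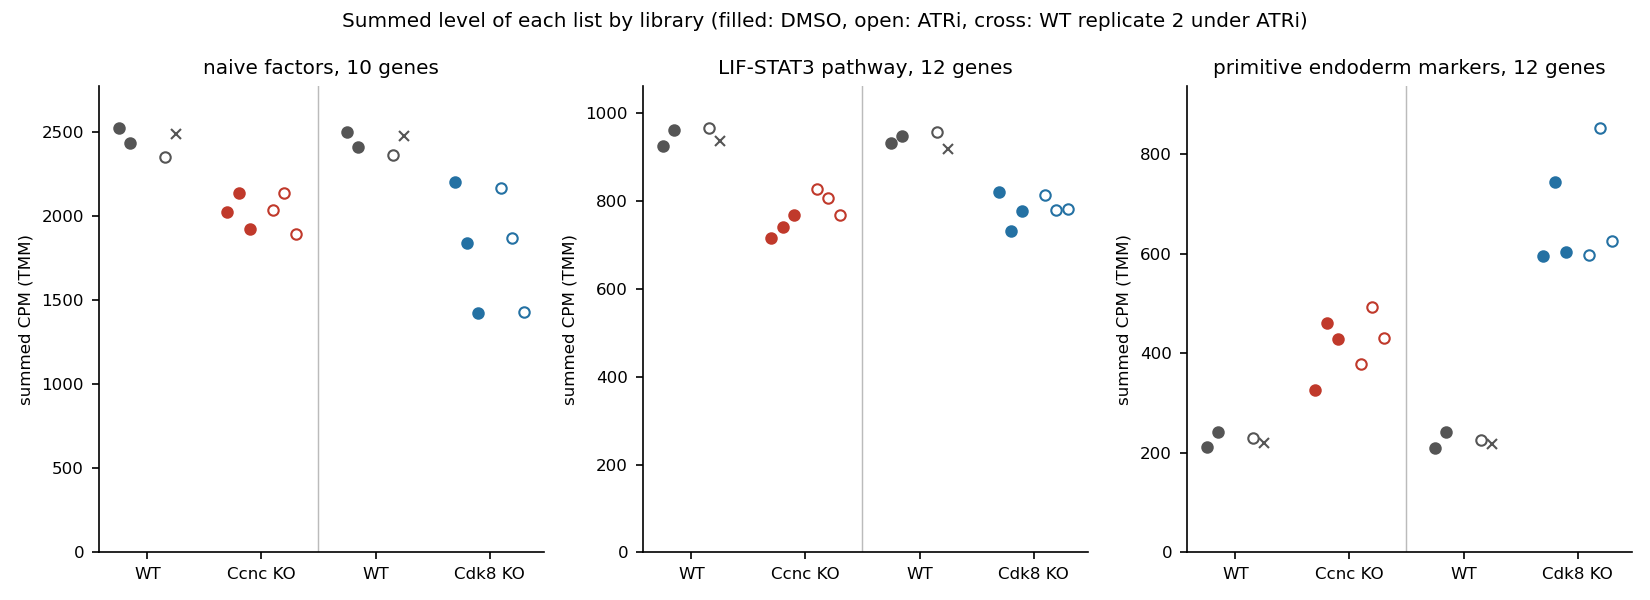
Summed CPM of the 10 naive factors (left), 12 LIF-STAT3 pathway genes (middle) and 12 primitive endoderm markers (right) in every library, DMSO filled, ATRi open and WT replicate 2 under ATRi as a cross. The naive factors and the LIF-STAT3 genes lay lower and the primitive endoderm markers higher in all 6 knockout libraries of each multiplex than in the WT libraries used beside them. Among lists not drawn, the sums of core factors and formative genes were also lower in all 6, and those of trophectoderm and fibroblast markers higher.

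To find genes most like the naive factors in pattern, each gene was correlated with the mean of the 10 members in each multiplex. The 9 libraries used in a multiplex come from 3 knockout clones and 2 WT replicates and so are not independent. The smaller of the 2 values of Pearson's r was taken. As a description, *Chd3*, a chromatin remodeller, was most alike among the genes outside the list, of 18130 with values in both multiplexes, with r of 0.968 and 0.958, before *Ppp2r5a* (0.97 and 0.951), *Pik3c2b* (0.941 and 0.95), *Gbx2*, a homeobox gene that acts downstream of STAT3 in mESCs and is on the list of other naive-state genes (0.94 and 0.96) and *Zbtb34* (0.956 and 0.916). Without clone H4, over 7 libraries of the *Cdk8* multiplex, r was 0.972 for *Gbx2* and 0.783 for *Ppp2r5a*. Of the members themselves, *Tbx3* had r of -0.48 with their mean among the *Ccnc* multiplex libraries and 0.571 among those of the *Cdk8* multiplex, and *Dppa3* had 0.329 and 0.175, whereas *Esrrb* had 0.853 and 0.981. That mean includes the member itself, which raises r, so these values are not comparable with those of genes outside the list.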

How the data were processed

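Gene counts were deposited by the authors, who, per the labels and the methods of the study, trimmed single-end reads of stranded poly(A) libraries with Trimmomatic 0.38, aligned them to GRCm38.p6 with HISAT2 2.1.0 and counted them by strand with featureCounts 2.0.1, with duplicates ignored. Tables of regularized log values in the same deposit were not used here. The counts of the lanes of each library were summed.

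Genes were filtered by filterByExpr, normalized by TMM and tested over the whole table with edgeR 4.0.16 (quasi-likelihood test, R 4.3.3), with treatment or genotype as a covariate and adjustment by Benjamini-Hochberg. Calls are at an adjusted p under 0.05 in either direction. CPM are TMM-normalized with no prior, and log2 CPM used a prior count of 2. Alternatives used DESeq2 1.42.0, limma 3.58.1 (voom with the clone as a random effect), the clone as a fixed effect, other filters and scalings, and each clone or WT replicate left out. The fits were tested on simulated data with 200 changed genes. Of 100 changes of 2-fold, 87 were recovered for *Ccnc* KO and 75 for *Cdk8* KO against WT, 74 and 72 for ATRi in the *Ccnc* and *Cdk8* multiplexes, 58 and 32 for the interactions, and 51 for the difference between the knockouts. False calls made up 0.752% to 7.33% of the calls, with 6.88% for *Ccnc* KO against WT and 7.33% for the difference between the knockouts. Each library was drawn independently, so these figures hold for data without clone effects and for changes larger than those of the members.

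The DMSO and ATRi samples of a clone came from the same cell line, which pairs them, and the correlation of their deviations from the group means lay between 0.0205 and 0.627. KO clones are separate lines and the WT samples are biological replicates per the methods. The main fits entered the DMSO and ATRi libraries of a line as separate samples. Their p-values therefore mix the spread between lines with that within a line, and only the fits with the clone as a block take the pairing into account. All 10 members are named in each comparison. Of the other lists, genes called in both knockouts are named, at most 4 per list, beside core factors named after their values were seen and except 1 gene that is not reported here. The members and lists were chosen with earlier results of these data known.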

Additional observations from a re-analysis of the deposited data

How the results depend on the processing

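In *Ccnc* KO against WT cells the 5 calls became 4 to 7 under the other settings, and 1 to 5 when a clone or WT replicate was left out, the 1 being without WT replicate 1. In *Cdk8* KO cells the 1 call became 6 with DESeq2, 5 with all genes of at least 1 count, 4 with all WT libraries, 0 with the GC and length offset, 0 with the replicate block, 0 with DMSO libraries alone, and 0 to 7 when a clone or WT replicate was left out. Over all genes the 806 calls became 1799 with DESeq2, 1130 with all genes of at least 1 count, 1130 with all WT libraries, 237 with the block and 5 with DMSO alone, and the 2284 calls in *Ccnc* KO cells 635 with DMSO alone. For ATRi the 1 call in the *Ccnc* multiplex became 0 with RLE size factors, 3 with all genes of at least 1 count, 0 with all WT libraries, 2 with the block, 2 with the block and the offset, and 0 to 1 with a line left out. In the *Cdk8* multiplex 0 became 2 with the block, 5 with the block and the offset, and 0 to 1 with a line left out. Over all genes ATRi gave 206 and 16 calls, 651 and 378 with DESeq2, 845 and 41 with all genes of at least 1 count, 641 and 39 with the offset, 451 and 2107 with the block, and 1184 and 2786 with the block and the offset. With all WT libraries they were 41 and 13. With the offset the split turned, from 68 higher and 138 lower to 380 and 261 in the *Ccnc* multiplex, and from 7 and 9 to 25 and 14 in the other. The interactions and the difference between the knockouts gave 0 members in all settings run, and without WT replicate 1 the interaction could not be fitted. The clone block changed no other call of a member. The cause of these shifts was not tested.

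Of 120 values for single members in each comparison, 97 in *Ccnc* KO, 92 in *Cdk8* KO and 97 and 105 for ATRi kept their direction and their side of the threshold. The log2 fold changes that turned were uncalled in the analysis reported above. In *Ccnc* KO cells *Prdm14* was -0.0401 with all WT libraries, -0.0416 with the offset and -0.0351 with DMSO alone, and -0.15 to 0.089 with a line left out, and *Nanog* -0.0236 and -0.0299 with the first and second of these, and -0.068 to 0.13 with a line left out. In *Cdk8* KO cells *Tbx3* was -0.075 to 0.59 with a line left out. For ATRi in the *Ccnc* multiplex *Klf5* was 0.0038 with RLE size factors and with DESeq2, 0.0019 with all genes of at least 1 count, 0.0982 with all WT libraries, 0.0102 with the offset, 0.0025 with the block and the offset, and -0.037 to 0.043 with a line left out. *Esrrb* was 0.0336, 0.0345 and 0.0272 with all WT libraries, the offset, and the block and the offset, and -0.024 to 0.029 with a line left out, and *Zfp42* -0.0043 with all WT libraries. In the *Cdk8* multiplex *Zfp42* was -0.0996 with all WT libraries and -0.0075 with the block and the offset, *Dppa3* 0.0172 with the block and -0.076 to 0.018 with a line left out, *Tfcp2l1* -0.089 to 0.038 and *Esrrb* -0.0010 to 0.066. Depth limits *Dppa3* most, at 155 to 405 counts per library.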
